A study of Mus musculus with 12 samples.

Results

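The genes described here are the T cell co-receptors and the transcription factors that set the CD4 or CD8 lineage. They were chosen by name, as probe sets whose single annotated gene symbol was Cd4, Cd8a, Cd8b1, Zbtb7b, Runx3, Runx1, Tox, Myb, Patz1 or Mazr, with the brightest set taken where a gene had several. Mazr had no probe set of its own and is an older name of Patz1, so the 10 names gave 9 genes of the 22180 with a single-symbol probe set. All 9 passed the filter on dim probe sets and were among the 14323 genes tested.

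CD4 and CD8 are surface proteins that bind MHC class II and class I molecules and bring the kinase Lck to the T cell receptor. Developing thymocytes carry both and then silence one of them. Zbtb7b, also called ThPOK, drives the CD4 fate, while Runx3 drives the CD8 fate and acts on the silencers of the Cd4 and Zbtb7b genes in mice. Mature CD4+ and CD8+ T cells of the spleen keep this choice.

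Splenocytes from mice were cultured for 24 h with or without 50 µM linoleic acid, a polyunsaturated fatty acid, and CD4+ and CD8+ T cells were then sorted. The 4 groups were CD8 T cells from linoleic acid culture, CD8 T cells from control culture, CD4 T cells from linoleic acid culture and CD4 T cells from control culture. Each had 3 Affymetrix MoGene-2_0-st arrays. The labels give no strain, sex, age or genotype, and do not say whether the arrays of a group came from separate animals or cultures. P-values therefore measure only the spread between these arrays, which may be technical. The study asked whether CD4 and CD8 T cells differ in their response to linoleic acid, and the difference between the cell types themselves is the other comparison the design allows.

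Levels are log2 intensities normalized by the authors with RMA, and a difference of 1 on this scale is a 2-fold difference. Tests are from limma on all 12 arrays, with p-values adjusted by Benjamini-Hochberg over the 14323 genes and a threshold of 0.05. As a gauge of probe sets without signal, the 95th percentile over 1432 receptor genes (olfactory, vomeronasal and taste) was log2 5.10. The mean of each of the 9 genes over the 12 arrays lay above it.

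The mean of the 6 measured T cell markers was 10.10 to 10.38 on the 4 arrays numbered 1 in the labels and 9.86 to 10.10 on the 8 arrays numbered 2 and 3. The means of B cell and NK cell markers differed more. The mean of the 8 measured B cell markers was 5.99 to 6.46 on the arrays numbered 1, against 7.20 to 7.85 on the others. Their levels ranged widely. Group means were 9.28 to 10.06 for Cd79a and 8.65 to 9.04 for Cd79b, the brightest, and 4.82 to 5.21 for Cr2, the dimmest. The T cell marker Cd3d had 9.10 to 9.41. The mean of 3 NK cell markers was 4.68 to 4.79 on the arrays numbered 1 and 5.36 to 5.81 on the others, and 7 of 8 myeloid and 6 of 6 dendritic cell markers lay at or below the receptor gauge. The median difference of these B cell markers over both cultures, CD8 minus CD4, was −0.40, with 8 of 8 below 0 and 0 past the test. With the array number as a block 4 of the 8 passed as lower over both cultures, where 9.23% of all genes passed. It was 3 in linoleic acid culture (5.57% of all genes) and 2 in control culture (4.4%). Of the 6 T cell markers 3 lay higher and 3 lower in CD8 T cells over both cultures. Of these 2 passed, where 4.71% of all genes did. They were Cd5 (−0.69, limma adjusted p = 0.00796) and Cd2 (−0.37, 0.0228), both lower. Of the 2 thymocyte markers tested, Dntt passed as lower (−0.53, limma adjusted p = 0.0355). The part of other cells in the differences below was not tested. In such bulk samples, fewer cells of a type and less RNA per cell cannot be told apart.

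Each co-receptor gene was high in its own lineage and far lower in the other. In CD8 against CD4 T cells of control culture, Cd4 was 29.5-fold lower, Cd8a 37.5-fold higher and Cd8b1 14-fold higher, and in linoleic acid culture they were 36.5-fold lower, 29.0-fold higher and 11.7-fold higher. Sorting by these proteins makes this a check of the labels rather than a result.

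Cd4 measured 5.12, 6.15 and 6.01 in CD8 T cells from linoleic acid culture and 5.32, 6.48 and 6.32 in CD8 T cells from control culture. In CD4 T cells it measured 11.13, 10.90 and 10.82 with linoleic acid and 11.19, 10.77 and 10.80 in control culture. The CD8 arrays were low and the CD4 arrays high without overlap. The difference, CD8 minus CD4, was −5.19 ± 0.29 (SE) in linoleic acid culture (limma adjusted p = 2.71e-07) and −4.88 ± 0.29 in control culture (limma adjusted p = 4.09e-07).

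Cd8a encodes the α chain, which forms either a homodimer or a pair with the β chain. It measured 11.12, 11.08 and 10.98 in CD8 T cells with linoleic acid and 11.21, 11.29 and 11.18 in CD8 T cells of control culture. In CD4 T cells it measured 5.01, 6.78 and 6.82 with linoleic acid and 5.41, 6.16 and 6.43 in control culture. All CD8 arrays lay above all CD4 arrays, and the CD4 arrays were far more spread. The difference was 4.86 ± 0.38 in linoleic acid culture (limma adjusted p = 3.92e-06) and 5.23 ± 0.38 in control culture (limma adjusted p = 1.64e-06).

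Cd8b1 encodes the β chain, which conventional CD8 T cells carry. It measured 11.21, 11.09 and 11.20 in CD8 T cells with linoleic acid and 11.27, 11.17 and 11.25 in CD8 T cells of control culture. In CD4 T cells it measured 7.05, 7.88 and 7.94 with linoleic acid and 7.41, 7.30 and 7.57 in control culture. The ranges were again far apart. The difference was 3.55 ± 0.19 with linoleic acid (limma adjusted p = 1.83e-07) and 3.81 ± 0.19 in control culture (limma adjusted p = 7.27e-08).

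The co-receptor of the other lineage was not at 1 level in all arrays. Cd4 in CD8 arrays was 5.12 to 5.32 on those numbered 1, against 6.01 to 6.48 on those numbered 2 and 3. Cd8a in CD4 arrays was 5.01 to 5.41 on those numbered 1, against 6.16 to 6.82 on the others. Cd8b1 in CD4 arrays overlapped, at 7.05 to 7.41 on those numbered 1 and 7.30 to 7.94 on the others. In control culture its number 1 (7.41) lay above its number 2 (7.30). For Cd4 and Cd8a the arrays numbered 1 were lower in both cultures, as were the B and NK cell marker means given above. The whole gauge of dim probe sets moved the same way, its 95th percentile being 4.81 to 5.05 on the arrays numbered 1 and 5.03 to 5.69 on the others. The part of either in the co-receptor levels was not tested.

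The size of the co-receptor contrast varied with it. Cd4 was lower in CD8 than in CD4 arrays of the same culture and number by a log2 difference of −6.02 to −5.88 for number 1 and −4.81 to −4.29 for numbers 2 and 3. For Cd8a the differences were 5.80 to 6.11 for number 1 and 4.16 to 5.13 for the others. Cd8b1 differed less between numbers, at 3.85 to 4.17 for number 1 and 3.22 to 3.88 for the others.

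**Figure D1:**
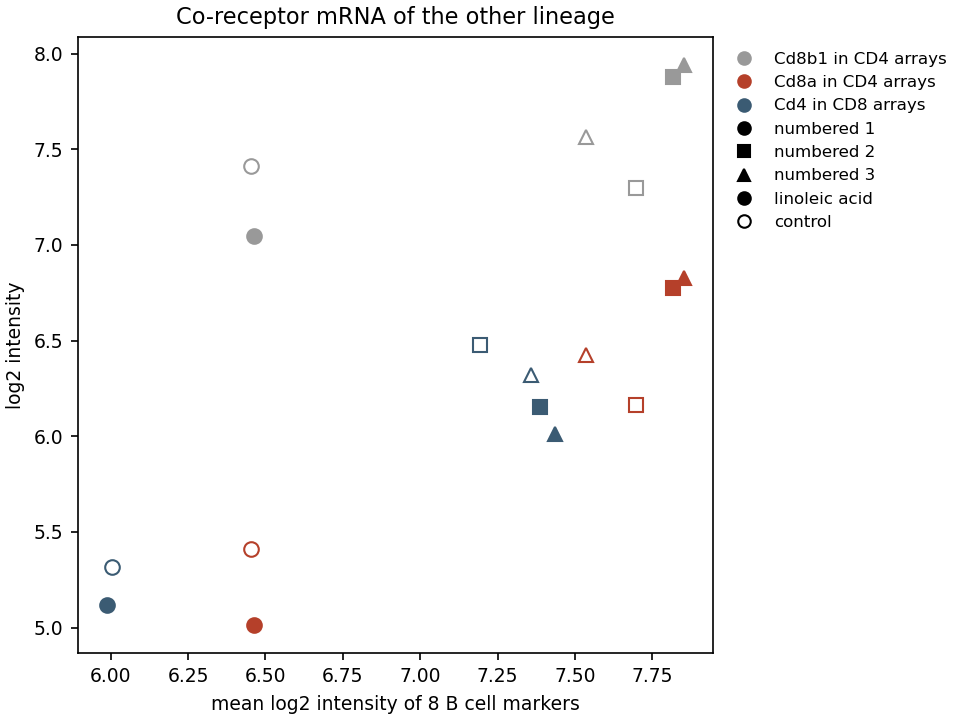
Log2 level of the co-receptor gene of the other lineage (Cd4 in CD8 arrays, Cd8a and Cd8b1 in CD4 arrays) against the mean log2 level of the B cell markers, 1 point per gene and array, with shapes for array numbers, filled for linoleic acid and open for control culture. For Cd4 and Cd8a the arrays numbered 1 lie lowest on both axes, with Cd4 at 5.12 to 5.32 and Cd8a at 5.01 to 5.41.

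In control culture, 5 of the 9 genes differed between CD8 and CD4 T cells past the threshold, 3 higher and 2 lower, where 1.95% of all tested genes did (1.03% higher and 0.929% lower). The 3 higher were Cd8a, Cd8b1 and Runx3, and the 2 lower were Cd4 and Zbtb7b. In linoleic acid culture it was also 5 of 9, 2 higher (Cd8a, Cd8b1) and 3 lower (Cd4, Zbtb7b, Runx1), against 2.03% of all genes (0.719% higher and 1.31% lower). The arrays of CD8 and CD4 did not overlap for 7 of the 9 genes in either culture, where 16.1% of all tested genes did not overlap in control culture and 15.3% with linoleic acid. The count fell to 3 in control culture without CD8 control array 2, and to 3 in linoleic acid culture without CD4 linoleic acid array 2 or in a fit of its 6 arrays alone. Averaged over both cultures, 7 of 9 passed, 4 higher and 3 lower, against 4.71% of all genes (1.95% higher and 2.76% lower). Across both cultures 6 of the 9 did not overlap, against 4.15% of all genes. Each of these counts holds Cd4, Cd8a and Cd8b1, which the sorting fixed in advance, so the counts cannot be read against the shares. Apart from them, the genes called were Zbtb7b and Runx3 in control culture and Zbtb7b and Runx1 with linoleic acid. Over both cultures they were Zbtb7b, Runx3, Runx1 and Myb.

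**Figure D2:**
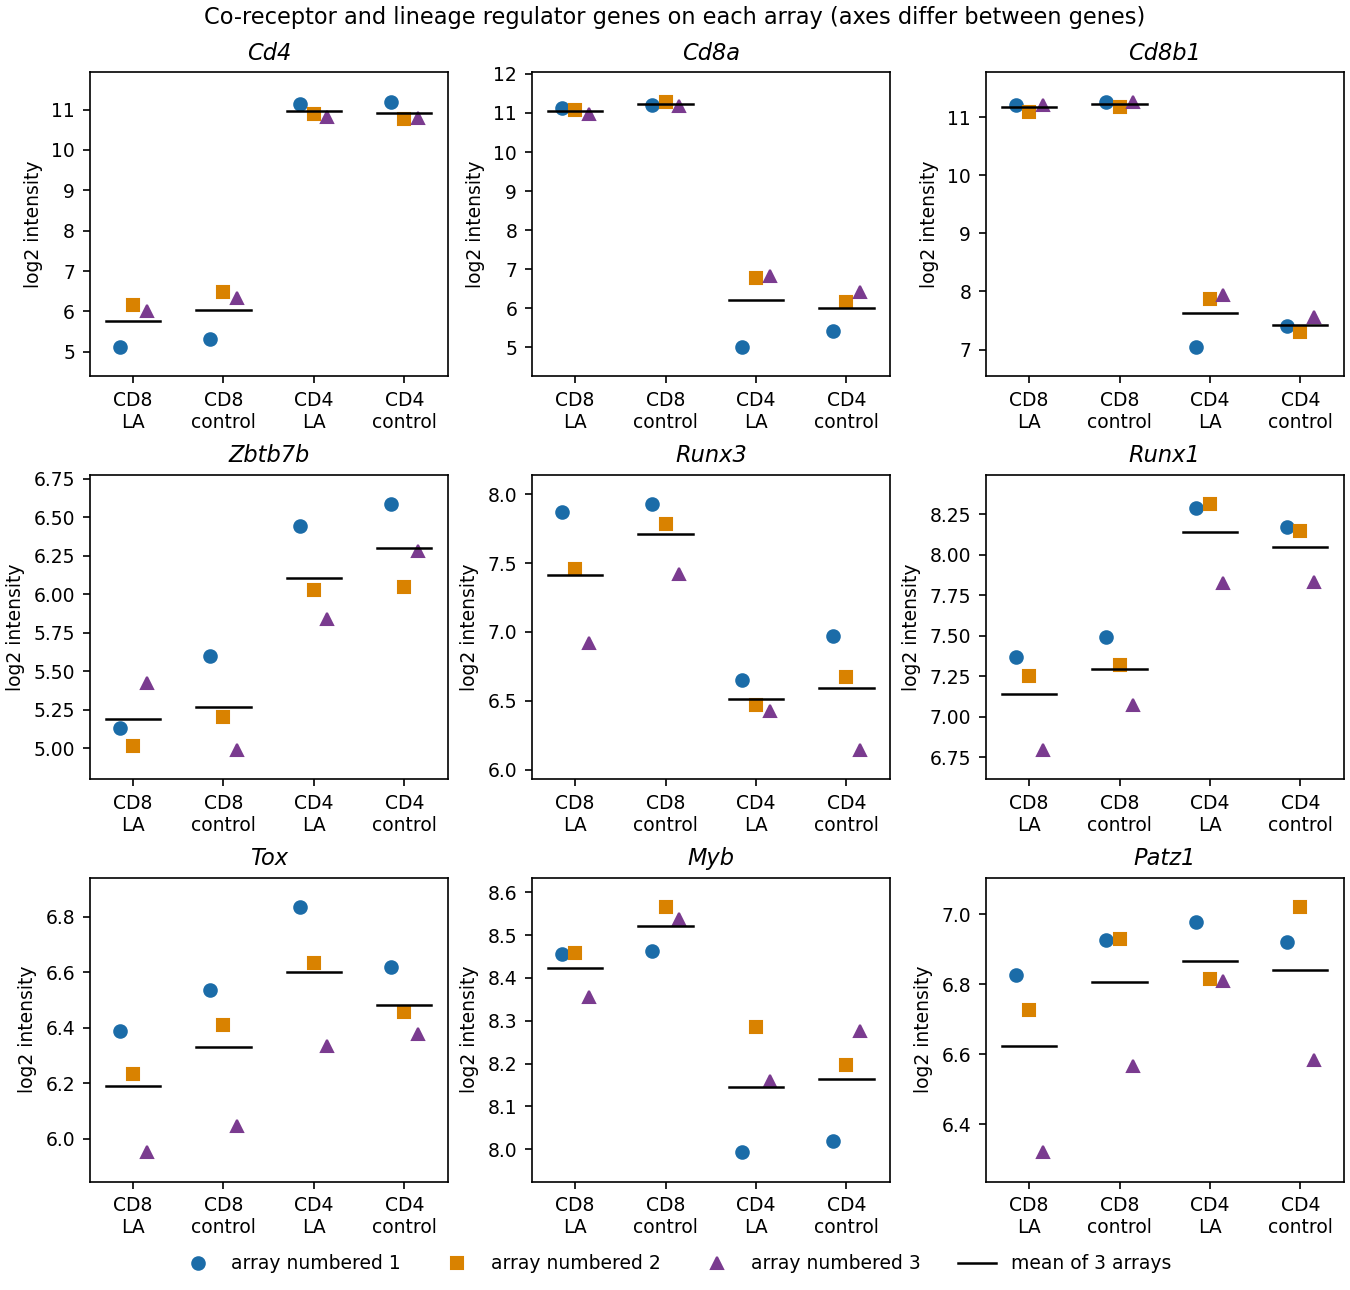
Log2 intensity of each of the 9 genes on each of the 12 arrays, in CD8 and CD4 T cells from linoleic acid and control culture, with points for arrays and bars for group means. The 3 co-receptor genes are separated by several log2 units, Zbtb7b, Runx3 and Runx1 by about 1 unit or less, and Tox and Patz1 overlap.

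Zbtb7b, the zinc finger factor of the CD4 lineage, was lower in CD8 T cells. Its levels were 5.13, 5.01 and 5.42 in CD8 T cells with linoleic acid, against 6.44, 6.03 and 5.84 in CD4 T cells with linoleic acid. In control culture they were 5.60, 5.20 and 4.99 in CD8 T cells, against 6.58, 6.05 and 6.28 in CD4 T cells. No CD8 array reached the lowest CD4 array in either culture, and the CD8 means of 5.19 ± 0.21 and 5.27 ± 0.31 (SD, n = 3 each) lay close to the gauge of dim probe sets, with 2 of the 6 CD8 arrays below it. The difference was −0.92 ± 0.20 (SE) with linoleic acid (1.89-fold lower, limma adjusted p = 0.0269) and −1.04 ± 0.20 in control culture (2.05-fold lower, limma adjusted p = 0.0116). Over both cultures it was −0.98 ± 0.14 (limma adjusted p = 0.000626). The control culture call was lost without CD8 control array 2 or 3 or CD4 control array 1 (limma adjusted p = 0.0579, 0.0663 and 0.0568). The linoleic acid culture call was lost without CD8 array 1 or 2 or CD4 array 1 or 2 of that culture (limma adjusted p = 0.0606, 0.122, 0.13 and 0.085), and in a fit of those 6 arrays alone (0.0685).

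Runx3, the Runt-domain factor of the CD8 lineage, was higher in CD8 T cells. In linoleic acid culture it measured 7.87, 7.45 and 6.92 in CD8 T cells, against 6.65, 6.47 and 6.43 in CD4 T cells. Control culture gave 7.93, 7.78 and 7.42 in CD8 T cells, against 6.97, 6.67 and 6.15 in CD4 T cells. The groups did not overlap within either culture, though across cultures the lowest CD8 array, at 6.92, lay just below the highest CD4 array, at 6.97.

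The Runx3 difference passed in control culture, at 1.11 ± 0.24 (2.16-fold higher, limma adjusted p = 0.0251). That call was lost without CD8 control array 1 or 2 or CD4 control array 2 or 3 (limma adjusted p = 0.126, 0.108, 0.0782 and 0.126). In linoleic acid culture the difference of 0.90 ± 0.24 did not pass (limma adjusted p = 0.0829). It passed there with the array number as a block (limma adjusted p = 0.000485, 5.57% of all genes called) and without CD8 array 3 of that culture (0.0203). Over both cultures Runx3 was 2.01-fold higher in CD8 T cells (limma adjusted p = 0.00209).

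Runx1, a Runt-domain factor that takes part in silencing Cd4 in early mouse thymocytes, went the other way from Runx3 and was lower in CD8 T cells. In linoleic acid culture it measured 7.37, 7.25 and 6.80 in CD8 T cells, against 8.29, 8.31 and 7.82 in CD4 T cells. Control culture gave 7.49, 7.32 and 7.07 in CD8 T cells, against 8.17, 8.15 and 7.83 in CD4 T cells. Every CD8 array lay below every CD4 array, across both cultures.

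The Runx1 difference was −1.0 ± 0.18 with linoleic acid (2.0-fold lower, limma adjusted p = 0.00927). It was lost there without CD4 array 2 (limma adjusted p = 0.0606) or in a fit of those 6 arrays alone (0.0627). In control culture it was −0.75 ± 0.18, which did not pass (limma adjusted p = 0.0534), though it did in 7 of 18 alternatives. Array by array, by number, it was −0.92, −1.06 and −1.03 with linoleic acid and −0.68, −0.83 and −0.76 in control culture, so same-numbered arrays gave nearly the same difference each time. Over both cultures Runx1 was 1.84-fold lower in CD8 T cells (limma adjusted p = 0.000774).

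Runx3 and Runx1 thus differed between the cell types in opposite directions. Taken within each array, Runx3 minus Runx1 was 0.50, 0.20 and 0.13 in CD8 T cells and −1.64, −1.84 and −1.40 in CD4 T cells with linoleic acid. In control culture it was 0.43, 0.46 and 0.34 in CD8 T cells and −1.20, −1.47 and −1.68 in CD4 T cells. CD8 arrays lay above CD4 arrays by a mean of 1.90 with linoleic acid and 1.87 in control culture. This pair was chosen after its values were seen and has no test, and since the probe sets differ, only the change between cell types and not the sign within an array can be read.

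The upstream promoters of these 2 genes are shown because they share a stretch holding paired copies of the Runx recognition letters. Promoters, from 250 bases before to 50 bases after the start site, were taken from RefSeq (GRCm38.p6), and both strands were searched for TGTGGT and TGCGGT, which read ACCACA and ACCGCA on the other strand. The motifs differ by 1 letter, and no site was counted under both. Capitals mark the matches. The Runx3 promoter lies at chr4:135120395-135120694 on the plus strand and the Runx1 promoter at chr16:92826025-92826324 on the minus strand.

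Runx3 upstream promoter: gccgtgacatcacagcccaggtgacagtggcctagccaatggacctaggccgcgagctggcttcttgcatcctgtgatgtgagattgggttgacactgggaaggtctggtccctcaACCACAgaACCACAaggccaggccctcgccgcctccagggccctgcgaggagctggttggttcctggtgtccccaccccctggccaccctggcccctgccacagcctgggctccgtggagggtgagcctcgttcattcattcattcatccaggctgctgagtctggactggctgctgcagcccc

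Runx1 upstream promoter: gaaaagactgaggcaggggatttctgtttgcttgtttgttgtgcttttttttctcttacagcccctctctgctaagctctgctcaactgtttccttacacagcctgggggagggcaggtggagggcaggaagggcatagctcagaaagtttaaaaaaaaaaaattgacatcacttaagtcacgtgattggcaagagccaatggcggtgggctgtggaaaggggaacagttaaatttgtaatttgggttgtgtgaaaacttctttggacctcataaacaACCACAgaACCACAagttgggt

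Matches began 134 and 126 bases before the Runx3 start site and 28 and 36 bases after the Runx1 start site. The 18 bases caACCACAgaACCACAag were the same in both, and 4 of 32851 mouse promoters (0.0122%) held them: those of Runx1, Runx2 and Runx3 and 1 predicted gene. Either motif was found in 22.4% of all promoters and 2 or more matches in 2.86%. A match describes letters and is not evidence of binding.

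Promoters of 6 of the 9 genes were found in the table, 10 in all, and 4 of the 10 held a match. Beside the Runx3 and Runx1 promoters these were the downstream promoter of Zbtb7b, chr3:89387622-89387921 on the minus strand, and that of Cd8a, chr6:71373177-71373476 on the plus strand. They are shown because both genes differed between the lineages. Capitals again mark the match, TGTGGT beginning 89 bases before the Zbtb7b start and ACCGCA beginning 43 bases after the Cd8a start.

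Zbtb7b downstream promoter: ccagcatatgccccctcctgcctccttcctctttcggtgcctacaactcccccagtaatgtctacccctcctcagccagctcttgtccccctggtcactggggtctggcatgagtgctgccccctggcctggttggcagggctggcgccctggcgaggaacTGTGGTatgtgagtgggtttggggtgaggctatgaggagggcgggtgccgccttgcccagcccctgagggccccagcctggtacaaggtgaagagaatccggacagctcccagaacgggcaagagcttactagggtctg

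Cd8a promoter: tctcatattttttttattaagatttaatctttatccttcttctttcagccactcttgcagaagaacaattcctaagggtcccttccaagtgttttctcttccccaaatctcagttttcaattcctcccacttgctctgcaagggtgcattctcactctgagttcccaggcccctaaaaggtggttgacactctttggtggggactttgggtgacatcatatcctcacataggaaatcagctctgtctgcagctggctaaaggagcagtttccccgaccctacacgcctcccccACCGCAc

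TGTGGT or its reverse complement was found in 16.8% of all promoters and TGCGGT or its reverse complement in 6.45%. The platform's genome build is not given in the sources used here, so these coordinates are those of RefSeq and were not set against the probes.

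Myb, a proto-oncogene transcription factor needed at several steps of T cell development, lay slightly higher in CD8 T cells. With linoleic acid it measured 8.45, 8.46 and 8.35 in CD8 T cells, against 7.99, 8.28 and 8.16 in CD4 T cells. In control culture it measured 8.46, 8.57 and 8.54 in CD8 T cells, against 8.02, 8.20 and 8.28 in CD4 T cells. All CD8 arrays were above all CD4 arrays, but the margin was small.

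The Myb difference was 0.28 ± 0.12 with linoleic acid (limma adjusted p = 0.355) and 0.36 ± 0.12 in control culture (0.206). Only over both cultures did it pass, at 0.32 ± 0.08 (1.25-fold higher, limma adjusted p = 0.0402). That call was lost in 15 of 24 alternatives. Among them were 9 of the 12 fits that left out 1 array (limma adjusted p = 0.0642 to 0.109), all but those without CD8 linoleic acid array 3, CD4 linoleic acid array 2 or CD4 control array 3, and the fit that first averaged same-numbered arrays of both cultures (0.202). A second, dimmer Myb probe set gave differences of 0.19 with linoleic acid and 0.40 in control culture.

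Tox, an HMG-box factor needed for CD4 lineage development in mice and high in exhausted CD8 T cells, did not pass. With linoleic acid it measured 6.39, 6.23 and 5.95 in CD8 T cells, against 6.84, 6.63 and 6.33 in CD4 T cells. In control culture it measured 6.54, 6.41 and 6.05 in CD8 T cells, against 6.62, 6.46 and 6.38 in CD4 T cells. The CD8 and CD4 arrays overlapped in both cultures. The difference was −0.41 with linoleic acid (95% interval −0.77 to −0.05, limma adjusted p = 0.337) and −0.15 in control culture (−0.51 to 0.21, limma adjusted p = 0.905). With 1 array of control culture left out it was −0.26 (without CD8 array 1) to −0.01 (without CD8 array 3). With the array number as a block the linoleic acid culture difference passed (limma adjusted p = 0.0339).

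Patz1, the zinc finger protein also called MAZR that represses Cd8 genes in mouse thymocytes, did not pass in either culture. With linoleic acid it measured 6.83, 6.72 and 6.32 in CD8 T cells, against 6.98, 6.81 and 6.81 in CD4 T cells. In control culture it measured 6.93, 6.93 and 6.57 in CD8 T cells, against 6.92, 7.02 and 6.58 in CD4 T cells. The groups overlapped in both cultures. The difference was −0.24 with linoleic acid (95% interval −0.59 to 0.11, limma adjusted p = 0.621) and −0.03 in control culture (−0.38 to 0.31, limma adjusted p = 0.984). Without CD8 linoleic acid array 3 the linoleic acid culture difference was −0.09, and leaving out 1 array of control culture gave −0.16 (without CD4 array 3) to 0.09 (without CD8 array 3).

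As a check that does not borrow spread from other genes, CD8 and CD4 labels were permuted within each culture. The exact two-sided permutation test over the 400 relabellings gave p = 0.005, the smallest it allows, for Cd4, Cd8a, Cd8b1, Zbtb7b, Runx3, Runx1 and Myb. The same exact permutation test gave p = 0.07 for Tox and 0.265 for Patz1. These relabellings do not use the array numbers. Cd4, Cd8a and Cd8b1 were fixed in advance by the sorting, and the share of all genes at the smallest p was not taken. Within 1 culture the permutation test has 20 relabellings and a smallest p of 0.1, so it cannot bear on the calls there. In limma the Tox difference over both cultures, −0.28, did not pass without the number as a block (adjusted p = 0.273) and did with it (0.0262).

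**Figure D3:**
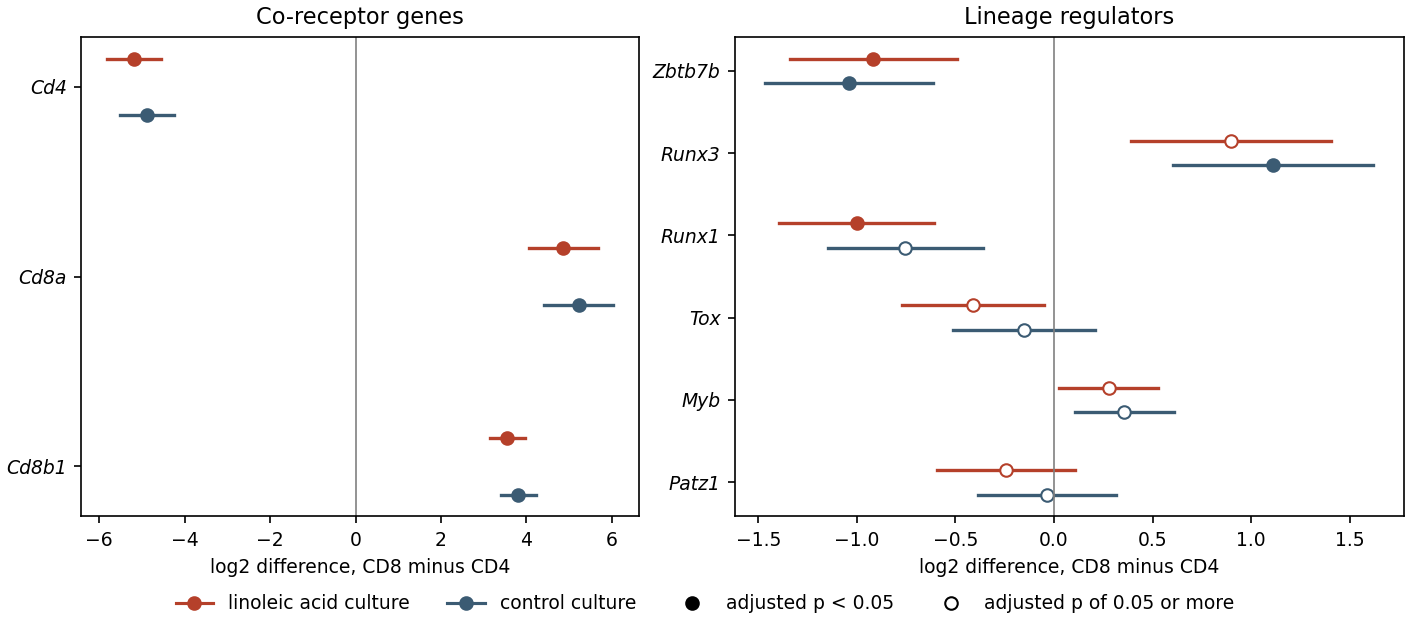
Log2 difference, CD8 minus CD4, of each of the 9 genes in linoleic acid culture and in control culture, with points for the limma estimates, filled where the adjusted p is under 0.05, and bars for their 95% intervals. The co-receptors span −5.19 to 5.23, the lineage regulators −1.04 to 1.11.

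Levels of 4 regulators ran in the same order of array numbers in several groups. Runx3, Runx1, Tox and Patz1 were lowest on the arrays numbered 3 in 4 of 4 groups, and Runx3 and Tox were highest on those numbered 1 in 4 of 4. The share of all genes in such an order was not counted, so the order is not read as particular to these genes. Taking off the group means, Runx3 averaged 0.29, 0.04 and −0.33 on arrays numbered 1, 2 and 3. The mean of the receptor genes was 2.99 to 3.15, 3.15 to 3.40 and 3.27 to 3.46 on these arrays, so the dim probe sets ran the other way. The part of that shift in the levels of these genes was not tested. The labels do not say what a number stands for.

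Other genes with a part in co-receptor choice were taken as a list of 24, of which 21 were measured and tested. In control culture 0 of the 21 passed by limma, where 1.95% of all genes did. At an unadjusted p under 0.05 there were 2 of the 21, where 9.37% of all genes lay. In linoleic acid culture 1 passed, lower in CD8 T cells, where 2.03% of all genes passed. This was Stat5b, a mediator of interleukin-7 and interleukin-2 signals, at 8.10 ± 0.29 in CD8 T cells and 8.87 ± 0.19 in CD4 T cells (SD, n = 3 each; difference −0.77 ± 0.15 (SE), limma adjusted p = 0.0136). That call was lost without CD4 linoleic acid array 1 or 2 (limma adjusted p = 0.0549 and 0.0898) or in a fit of those 6 arrays alone (0.113).

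Of the 21 differences in linoleic acid culture 17 were below 0, and their median was −0.16, against −0.02 over all genes. Leaving out 1 array gave medians between −0.31 (without CD8 array 1) and −0.04 (without CD8 array 3). With the array number as a block 5 of the 21 passed, all lower, where 5.57% of all genes passed. Besides Stat5b these were Gata3, a factor needed for CD4 lineage development (−0.50, limma adjusted p = 0.0203), Bcl11b, a factor of T cell identity (−0.69, 0.00507), Satb1, a chromatin organiser (−0.61, 0.00344), and Ets1, a factor of lymphocyte development (−0.49, 0.0176). Without CD8 array 3 of that culture the difference was −0.38 for Bcl11b and −0.32 for Gata3. Over both cultures Stat5b was again the 1 gene of the 21 that passed without the block (−0.60, limma adjusted p = 0.00313), where 4.71% of all genes passed. With it 5 passed, the others being Gata3, Bcl11b, Satb1 and Ets1 (limma adjusted p = 0.0173, 0.00545, 0.00509 and 0.0161), where 9.23% of all genes passed.

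The genes whose levels ran most like each member are given as a description, by Pearson r over the 12 arrays, which fall into 4 groups that set much of each r. For Cd4 they were Foxp3 (0.987), Il2ra (0.986) and St8sia6 (0.984). For Cd8a they were Cd8b1 (0.995), Ccl5 (0.993) and Nkg7 (0.992), and for Cd8b1 Cd8a, Ccl5 (0.995) and Epsti1 (0.993). Zbtb7b ran most like Zfp287 (0.963), Rabgap1l (0.949) and Selenop (0.945), and Runx3 most like Limk1 (0.993), Nod1 (0.991) and H2-Q5 (0.977). For the other regulators the group means were taken off first, which leaves what the arrays share within groups, the number included. Runx1 then ran most like Atf6b (0.991), Ciz1 (0.976) and Map3k10 (0.971), Tox like Nfatc2 (0.973), Mlycd (0.971) and Dop1b (0.963), and Patz1 like Rere (0.965), Mapk9 (0.963) and Zfp598 (0.959). For Myb they were Cnr2 (0.949), Gem (0.930) and Gabarapl1 (0.917).

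Linoleic acid changed none of the 9 genes past the threshold in either cell type, and 0 of all 14323 genes passed by limma in either (0% called). At an unadjusted p under 0.05 there were 728 genes in CD8 T cells and 373 in CD4 T cells. With the array number as a block 1 gene passed in each cell type (0.00698%), no member in either. Over both cell types 0 passed (693 at an unadjusted p under 0.05), and 26 genes did with the block (0.182%), again no member. Array weights, whose estimation stopped before convergence, gave 213 genes in CD8 T cells, 1 in CD4 T cells and 3 over both, with 0 members in each.

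In CD8 T cells all 9 genes lay lower with linoleic acid, with a median difference of −0.16, while 63.1% of all genes lay lower with a median of −0.06. Runx3 was at 7.41 ± 0.47 with linoleic acid and 7.71 ± 0.26 in control culture (SD, n = 3 each). Its difference was −0.29 ± 0.24 (SE, 95% interval −0.80 to 0.22), and leaving out 1 array gave values from −0.52 (without CD8 linoleic acid array 1) to −0.05 (without CD8 linoleic acid array 3). Cd4, the co-receptor these cells lack, was at 5.76 ± 0.56 with linoleic acid and 6.04 ± 0.63 in control culture, a difference of −0.28 (95% interval −0.91 to 0.36), and leaving out 1 array gave −0.64 (without CD8 control array 1) to 0.05 (without CD8 linoleic acid array 1). Intervals of the 9 differences spanned −0.97 to 0.64. Cd8a (−0.16) and Myb (−0.10) had linoleic acid arrays wholly below control arrays, as did 5.7% of all genes. CD8 linoleic acid array 3 was the lowest CD8 array for Runx3, Runx1, Tox and Patz1. Without it 8 of 9 lay lower and the median was −0.07.

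In CD4 T cells 6 of the 9 lay higher with linoleic acid and 3 lower, with a median difference of 0.03, while 48.6% of all genes lay higher with a median of −0.005. Leaving out 1 array gave 4 to 6 higher and medians between −0.02 (without CD4 control array 3) and 0.11 (without CD4 control array 1). Cd8a was at 6.20 ± 1.03 with linoleic acid and 6.0 ± 0.53 in control culture (SD, n = 3 each), which is a difference of 0.21. With 1 array left out it was −0.10 (without CD4 linoleic acid array 3) to 0.80 (without CD4 linoleic acid array 1). Zbtb7b was at 6.10 ± 0.31 with linoleic acid and 6.30 ± 0.27 in control culture, a difference of −0.20 (95% interval −0.63 to 0.22), and leaving out 1 array gave −0.37 (without CD4 linoleic acid array 1) to −0.06 (without CD4 control array 1). The smallest limma adjusted p of the 9 was 0.9998. Intervals of the 9 differences together spanned −0.63 (lower end of Zbtb7b) to 1.01 (upper end of Cd8a), and the narrowest, of Myb, was −0.27 to 0.23. Differences inside a gene's own interval could not be resolved with 3 arrays a group.

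**Figure D4:**
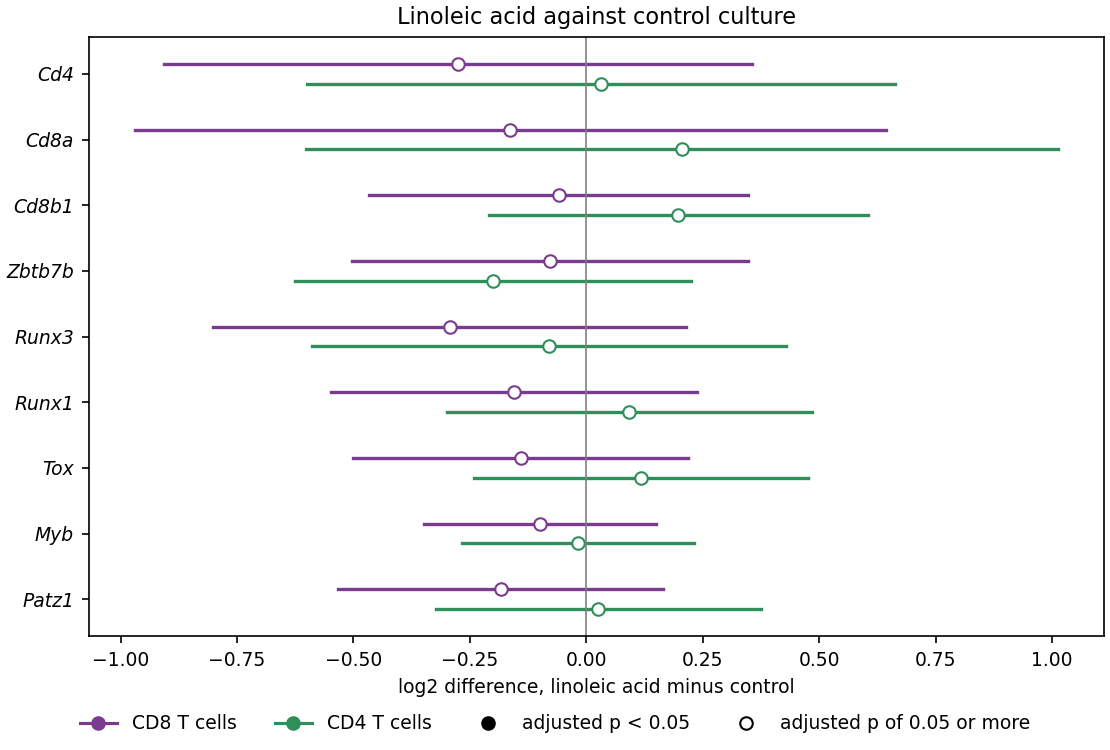
Log2 difference, linoleic acid minus control, of each of the 9 genes in CD8 and CD4 T cells, with open points for the limma estimates, none with an adjusted p under 0.05, and bars for their 95% intervals. In CD8 T cells all 9 estimates lie below 0 by at most 0.29, in CD4 T cells 6 lie above it by at most 0.21, and all intervals span 0.

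The study's own question is the difference between these effects, linoleic acid in CD4 T cells minus that in CD8 T cells. It was positive for 8 of the 9 genes, with a median of 0.25, against 57.1% of all genes and a median of 0.04. None passed by limma (0% of all genes called, 336 genes at an unadjusted p under 0.05), and the smallest adjusted p of the 9 was 0.953. Cd8a had 0.37 (95% interval −0.77 to 1.51), and 0.06 (without CD4 linoleic acid array 3) to 0.96 (without CD4 linoleic acid array 1) with 1 array left out. Runx1 had 0.25 (−0.31 to 0.80), with 0.24, 0.23 and 0.27 for the 3 array numbers, and 0.08 without CD8 linoleic acid array 3. Leaving out 1 array gave medians between 0.08, with 7 of 9 positive (without CD8 linoleic acid array 3), and 0.33 (without CD8 control array 3).

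The 21 other regulators gave the same counts of calls for linoleic acid, 0 in either cell type. In CD8 T cells 20 of 21 lay lower with a median of −0.19, against a median of −0.06 over all genes. Without CD8 linoleic acid array 3 it was 14 of 21 and −0.05. In CD4 T cells 16 of 21 lay higher with a median of 0.10, against a median of −0.005 over all genes. Without CD4 control array 3 it was 10 of 21 and −0.002. The shares of all genes that lay lower in CD8 and higher in CD4 T cells are given above.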

How the data were processed

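The deposited values were log2 intensities, 1 per probe set and array, which the authors made with RMA, per the submitters' processing notes. The sources used here name neither its software nor the build. Values were used as deposited. Array medians were 4.66 to 4.80. Of 41345 probe sets, 23521 carried 1 gene symbol in the platform annotation, 1814 several and 16010 none, and those with 1 symbol gave 22180 genes. A gene was tested where its mean reached log2 4.28, the 40th percentile of probe set means. Contrasts of the 4 group means were fitted to all 12 arrays with limma 3.58.1 in R 4.3.3 (8 residual and 5.67 prior degrees of freedom) and tested two-sided. The number of arrays limits the precision.

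The members and lists were chosen with earlier results of these data known. All 9 members were named. Of the other regulators, those past the threshold in any contrast were named, and for each member the 3 most like genes, leaving out predicted genes. Gata3, Bcl11b, Satb1 and Ets1, which passed in some alternatives, were named after their values were seen. Other cells were gauged with fixed marker lists, of which 6 of 7 T cell, 8 of 9 B cell, 8 of 8 myeloid, 6 of 7 dendritic, 3 of 5 NK and 4 of 5 thymocyte markers were measured.

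Labels give each group the numbers 1, 2 and 3. Correlations between arrays of 1 number were taken once group means were off. Between CD8 and CD4 T cells of linoleic acid culture they were 0.578, 0.256 and 0.522. Between linoleic acid and control culture they were 0.428, 0.195 and 0.417 in CD8 T cells and 0.608, 0.194 and 0.317 in CD4 T cells. In control culture they were 0.538, −0.013 and 0.421 between CD8 and CD4 T cells. The main fit did not pair arrays by number in any comparison. The number as a block was an alternative in every comparison, and only the data speak for such pairs. The limma step was tested on simulated data. Their noise was drawn separately for each array, so that test does not cover arrays correlated by number. Alternatives were the number as a block, each array left out, other filters, normalizations, variance models and probe set rules, a fit of the compared groups alone and array weights.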

Additional observations from a re-analysis of the deposited data

How the results depend on the processing

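With the replicate block, 7 of the 9 genes passed between CD8 and CD4 T cells of linoleic acid culture, adding Runx3 and Tox, against 5.57% of all genes. It gave 6 in control culture, adding Runx1 (limma adjusted p = 0.000314), against 4.4% of all genes, and 8 over both cultures, adding Tox (0.0262), against 9.23%. Leaving out 1 array gave 3 to 6 genes in linoleic acid culture, 3 to 4 in control culture and 6 to 7 over both. Fitting only the compared groups gave 3 in linoleic acid culture. Leaving out number 2 of every group, chosen after seeing the data, gave 3, 3 and 3. Without number 1 of every group it was 4, 5 and 6, and without number 3 it was 5, 5 and 6. Averaging same-numbered arrays first, also added later, gave 6 over both cultures, losing Myb. The co-receptors, fixed in advance by the sorting, passed under all 18, 18 and 24 alternatives and are in each of these member counts. Of 747 member values for linoleic acid, 0 passed and 55 changed sign. No called difference between CD8 and CD4 changed sign.

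Over all genes the block gave 798 calls in linoleic acid culture, 630 in control culture and 1322 over both, against 291, 280 and 674 without it, and 1, 1 and 26 for linoleic acid in CD8, in CD4 and over both cell types. Leaving out 1 array gave 150 to 322, 176 to 223 and 512 to 744. Fitting the compared groups alone gave 138 in linoleic acid culture. Leaving out number 2 gave 62, 65 and 172, number 1 gave 223, 230 and 507, and number 3 gave 139, 146 and 398. Averaging first gave 316, and array weights, whose estimation stopped before convergence, gave 2299 in linoleic acid culture and 1473 over both. For linoleic acid the weights gave 213, 1 and 3 in CD8, in CD4 and over both cell types. The fits that left out arrays or groups had fewer arrays, and for the others the cause was not tested. Among their 2299 calls in linoleic acid culture, with no block, were Gata3 (limma adjusted p = 0.0173), Bcl11b (0.0243), Satb1 (0.00205) and Ets1 (0.0049), lower in CD8 T cells. In that culture the weights were 4.91 for CD8 array 2 and 3.22 for CD4 array 2, and 0.29 to 0.80 for the other arrays. Zbtb7b in CD8 T cells lay near the level of probe sets without signal, which limits its fold. The same holds for Cd4 in CD8 arrays and Cd8a in CD4 arrays numbered 1 (5.12 to 5.32 and 5.01 to 5.41). On those numbered 2 and 3 they lay higher, at 6.01 to 6.48 and 6.16 to 6.82. Cd8b1 in CD4 arrays, at 7.05 to 7.94, was not near that level.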
